A study of Mus musculus with 8 samples.

Results

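Adipokines are hormones and other proteins that fat tissue releases into the blood. The 8 genes described here encode adiponectin (Adipoq), leptin (Lep), resistin (Retn), retinol binding protein (Rbp4), adipsin (Cfd), visfatin (Nampt), apelin (Apln) and chemerin (Rarres2). They were chosen by symbol from the 23212 genes of the count tables for their function as secreted factors. All 8 had enough counts to be among the 14493 genes tested.

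The libraries were made from whole perigonadal fat, the large visceral depot beside the gonads, from 4 wild-type mice and from 4 in which a gene was knocked out in adipocytes only, 1 library per mouse. All mice were C57BL/6, were 20 weeks old and had eaten a 45% fat diet for 12 weeks from 8 weeks of age. The labels describe the genotypes as matched for age and weight, and the promoter that drives the deletion is not given in the sources used here. Total counts ran from 46444435 to 51431956 per library. Whole fat holds adipocytes with macrophages, vessel cells, fibroblasts and mesothelium, so fewer cells of a type and less RNA per cell cannot be told apart. Wild-type library 3 and knockout library 2 stood apart in 4 of 6 epithelial genes, Foxj1, Epcam, Cuzd1 and Cdh1, a contrast first seen in the values. Epcam, an epithelial adhesion gene, had levels of 5.79 and 19.6 CPM in these libraries and between 0.168 and 0.491 CPM in the other 6. The keratin genes Krt8 and Krt18 did not set wild-type library 3 apart, with 11.5 and 16.8 CPM there against 29.5 and 24.5 CPM in wild-type library 2. Krt8 did not set knockout library 2 apart either, at 24.0 CPM. The sum of the 6 genes was 57.2 and 54.7 CPM in wild-type libraries 3 and 2 and 157 CPM in knockout library 2. CPM is a gene's count relative to the scaled total of its library. The comparison of knockout with wild type was also fitted without the pair that stood apart. The leptin to adiponectin ratio and the correlations of adipokines with other genes were not.

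Leptin signals the size of the fat store to the brain and restrains appetite, and its level in blood climbs with fat mass. Adiponectin, made almost only by adipocytes, improves insulin action in liver and muscle and circulates as trimers and larger assemblies. Resistin is an adipocyte product in mice, and Rbp4 carries retinol in blood. Adipsin is complement factor D, the protease that starts the alternative complement pathway. Nampt catalyses the rate-limiting step of NAD salvage and is also found outside cells. Apelin is a peptide that acts on vessels and heart, and chemerin is a chemoattractant for immune cells that also acts on adipocytes.

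The genes differed in how steady they were between mice, and the upstream bases of 5 of them are shown. Of these, Adipoq, Lep and Cfd varied more than 2-fold over the 8 libraries, and Rbp4 and Nampt by less than 1.3-fold. Retn (2.33-fold), Apln (2.75-fold) and Rarres2 (2.25-fold) also varied more than 2-fold and are not shown. Each sequence is the 250 bases before the start site, read 5′ to 3′ on the gene's strand from RefSeq (build GRCm38.p6, the assembly called mm10), in which 7 of the 8 genes had an entry. Adipoq lies at chr16:23146286-23146535 and Lep at chr6:29059971-29060220, both on the plus strand. Cfd lies at chr10:79890603-79890852 and Nampt at chr12:32820085-32820334, both on the plus strand. Rbp4 has a pair of start sites, and the window shown, at chr19:38124812-38125061 on the minus strand, belongs to the inner one. Capitals mark matches, on either strand, to any of 6 short motifs that were searched.
Adipoq: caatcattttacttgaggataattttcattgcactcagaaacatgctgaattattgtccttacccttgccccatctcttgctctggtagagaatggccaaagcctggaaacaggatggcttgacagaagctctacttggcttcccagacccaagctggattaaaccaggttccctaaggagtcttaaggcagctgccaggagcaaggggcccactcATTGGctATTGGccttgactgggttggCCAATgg
Lep: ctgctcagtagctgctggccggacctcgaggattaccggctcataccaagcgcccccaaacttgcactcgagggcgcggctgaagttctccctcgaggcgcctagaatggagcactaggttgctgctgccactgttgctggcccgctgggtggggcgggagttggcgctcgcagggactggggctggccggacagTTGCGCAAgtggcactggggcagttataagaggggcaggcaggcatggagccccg
Cfd: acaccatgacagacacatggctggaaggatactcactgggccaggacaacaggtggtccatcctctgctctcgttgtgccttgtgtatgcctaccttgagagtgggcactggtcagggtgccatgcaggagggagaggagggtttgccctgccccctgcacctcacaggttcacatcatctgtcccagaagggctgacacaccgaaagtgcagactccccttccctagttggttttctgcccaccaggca
Rbp4: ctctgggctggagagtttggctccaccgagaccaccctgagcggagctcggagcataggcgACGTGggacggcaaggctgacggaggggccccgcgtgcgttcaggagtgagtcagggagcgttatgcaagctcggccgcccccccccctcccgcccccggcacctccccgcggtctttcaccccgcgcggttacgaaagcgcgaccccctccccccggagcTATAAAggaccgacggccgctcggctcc
Nampt: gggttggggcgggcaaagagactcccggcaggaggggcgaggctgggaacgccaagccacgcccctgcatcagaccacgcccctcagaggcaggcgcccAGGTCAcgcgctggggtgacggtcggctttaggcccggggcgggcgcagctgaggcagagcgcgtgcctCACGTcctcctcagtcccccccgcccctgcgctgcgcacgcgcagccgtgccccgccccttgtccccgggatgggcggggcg

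In the Lep window the capitals are the palindrome TTGCGCAA, the pattern bound by C/EBP factors, 55 bases before the start; 0.164% of all 32851 windows of this length hold it. The Adipoq window holds CCAAT 3 times, on the minus strand 34 and 27 bases and on the plus strand 7 bases before the start, and 33.8% of all windows hold at least 1. Rbp4 has TATAAA 28 bases before the start (12.4% of windows) and ACGTG, the core bound by hypoxia-inducible factors, at 189 bases (16.6% of windows). Nampt has ACGTG on the minus strand at 82 bases and AGGTCA, a hexamer bound by nuclear receptors, at 151 bases (14.02% of windows). The outer Rbp4 window holds CCAAT on the minus strand 162 bases before its start. CACGTG, an E-box that contains ACGTG, matched in no member window (6.02% of all windows), and Cfd, Retn and Apln matched none of the 6 motifs. A match is a run of letters only, and binding was not measured. The 2 steady genes had the windows with the most GC, 75.6% for Nampt and 70.8% for Rbp4, with 27 and 28 CpG. Lep was at 65.6% and 16 CpG, Apln at 65.2% and 12, Cfd at 57.6% and 2, Retn at 54.8% and 2, and Adipoq at 48.8% and 0, where the median of all windows was 52.4% and 6. The outer Rbp4 window was at 40.8% and 5. This comparison was made after the spreads were known and was not tested.

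Together the 8 genes took 1.66% to 2.24% of all counts in a library, with medians of 1.79% in wild type and 1.95% in knockout. Per length of exon, as RPKM (reads scaled to exon length and library size), Cfd stood highest at 7612 ± 3318 in wild type and 8881 ± 2485 in knockout (SD, n = 4 each), 4th among all tested genes by its mean over the 8 libraries. Adipoq was 6th, at an RPKM of 4256 ± 1054 and 4148 ± 1101, and was below Cfd in 8 of 8 libraries, by 1.10-fold to 3.96-fold. Retn (1195 ± 319 in wild type, 930.1 ± 279 in knockout), Lep (1068 ± 90.7 and 952 ± 331) and Rarres2 (937 ± 213 and 862 ± 232) followed, and the order of these 3 levels changed from mouse to mouse. Retn was above Lep in 4 of 8 libraries, and Lep above Rarres2 in 6 of 8. Rbp4 was at an RPKM of 630.4 ± 67.1 and 653 ± 25.5, below Rarres2 in 7 of 8 libraries. Nampt, at 30.8 ± 1.91 and 28.8 ± 2.73, and Apln, at 9.04 ± 3.78 and 9.69 ± 3.09, were lower than the rest in every library. The counts of Rarres2 are less certain, since its exons share bases with Lrrc61.

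**Figure D1:**
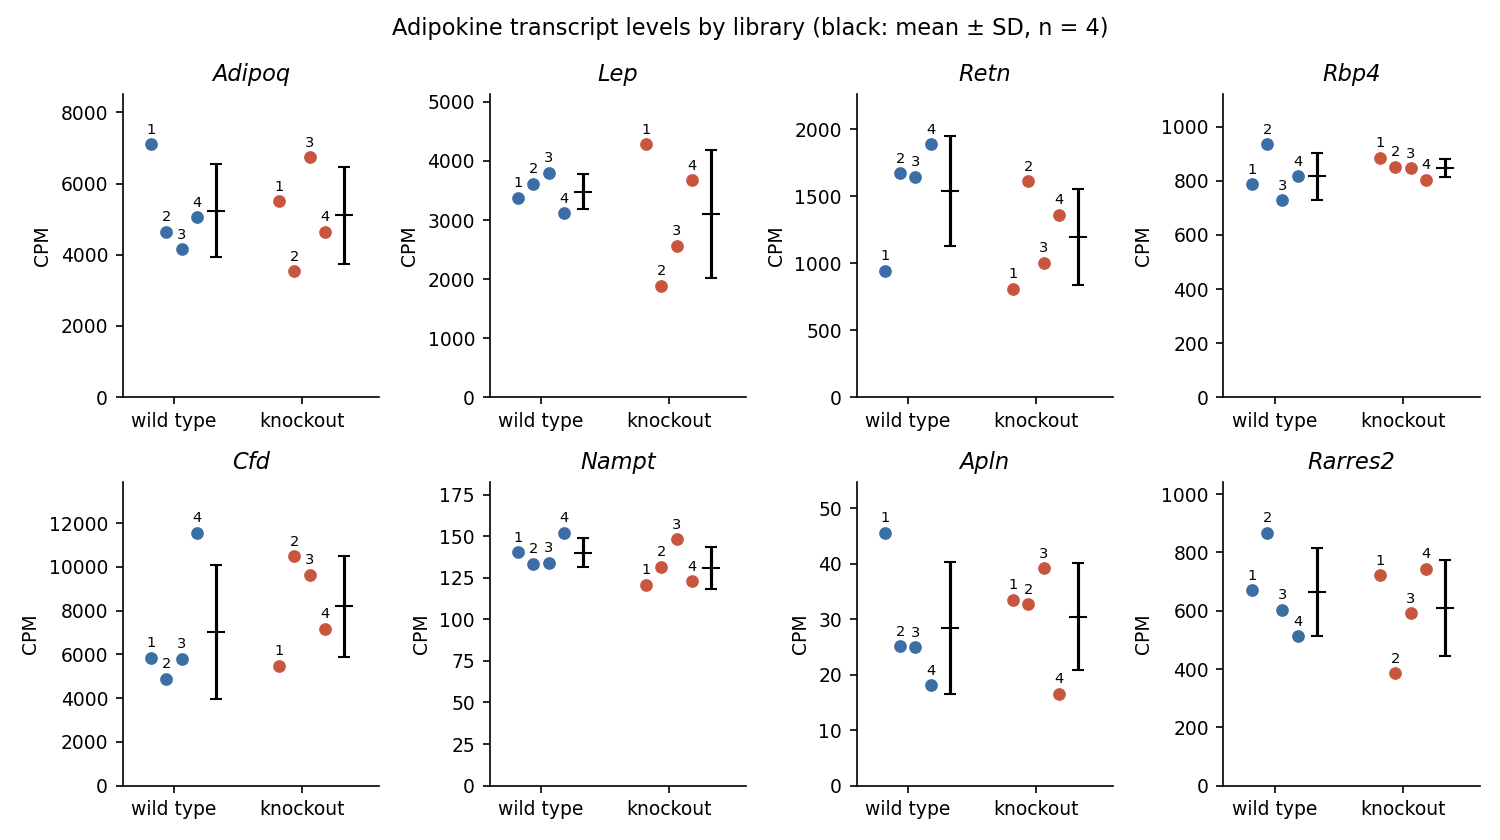
Transcript level of each adipokine gene in CPM (vertical axes from 0) in 4 wild-type and 4 knockout libraries, numbered as in the labels; black bars give mean ± SD. The points of the genotypes overlap in all 8 panels, and Rbp4 and Nampt vary least.

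The comparison of knockout with wild type asks whether loss of the gene in adipocytes was accompanied by a different output of adipokine transcripts. None of the 8 genes passed the test, and the groups overlapped in all 8. Across the transcriptome 2 of 14493 genes passed (0.0138%) in edgeR's quasi-likelihood test at an adjusted p under 0.05, and 1.44% of tested genes had groups without overlap. At an unadjusted p under 0.05 there were 0 of the 8 genes and 323 of all genes. The log2 fold changes of 3 genes were above 0 and those of 5 below, with a median of -0.067 beside 0.011 over all tested genes. Their median size was 0.11, as was that of all tested genes. The 1808 tested genes at 100 CPM or more, a level that every member but Apln reached on average, had a median size of 0.080. Adjusted p was 1.00 for every one of the 8, so intervals rather than p-values describe them below.

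Adipoq (chromosome 16, 23146536 to 23157968, 3 exons) was at 7110.4, 4653, 4153 and 5055 CPM across wild-type libraries 1 to 4 and at 5499.6, 3541, 6750.3 and 4649 CPM across knockout libraries 1 to 4. The highest and the lowest mouse of all differed 2.01-fold, and wild-type library 1 and knockout library 3 stood above the rest of their groups. Means were 5243 ± 1298 and 5109.9 ± 1356 CPM (SD, n = 4 each). Knockout over wild type gave a log2 fold change of -0.037 with a 95% interval from -0.59 to 0.52, that is, a level in knockout between 0.662 and 1.43 times that of wild type.

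Lep (chromosome 6, 29060221 to 29073876, 3 exons) was at 3377, 3613, 3802 and 3119.6 CPM among wild-type mice and at 4285, 1887, 2567 and 3669 CPM among knockout mice. Wild-type mice lay close together, with a coefficient of variation (CV) of 8.50%, and knockout mice held both the highest and the 2 lowest levels, with a CV of 34.7%; the difference in spread was not tested. The fitted log2 fold change was -0.16 (95% interval -0.73 to 0.40). Its sign rested on knockout library 2, the lowest of all and one of the pair with epithelial genes: without that library it was 0.0079, and without the pair 0.059.

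The ratio of leptin to adiponectin counts, which does not depend on library scaling, was 0.475, 0.776, 0.915 and 0.617 in wild-type libraries 1 to 4 and 0.779, 0.533, 0.380 and 0.789 in knockout libraries 1 to 4. On the log2 scale the ratio was -0.57 ± 0.41 in wild type and -0.75 ± 0.50 in knockout (SD, n = 4 each), a difference of -0.19 that is smaller than either SD. Both genotypes had mice near the bottom and near the top of the range.

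Retn (chromosome 8, 3655770 to 3659818, 5 exon blocks) had the largest fitted difference of the 8. It was at 943, 1669.7, 1645 and 1888 CPM among wild-type mice and at 810.5, 1612, 1002 and 1360.0 CPM among knockout mice. Wild-type library 1 lay with the lower knockout mice, and knockout library 2 with the higher wild-type mice. The log2 fold change was -0.36 (95% interval -0.98 to 0.25, unadjusted p = 0.217 in edgeR's quasi-likelihood test), a level in knockout between 0.508 and 1.19 times that of wild type. It was -0.54 both without wild-type library 1 and without knockout library 2, and -0.21 without knockout library 1.

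Rbp4 (chromosome 19, 38116620 to 38125321, 7 exon blocks) was among the steadiest of the 8 genes. It was at 788, 936, 729 and 817 CPM among wild-type mice and at 885, 852, 847 and 804 CPM among knockout mice, and the 4 knockout mice lay within the wild-type range. Its mean CV over the genotypes was 7.28%, where the 1808 tested genes at 100 CPM or more had a median of 13.98%. For Rbp4 the log2 fold change was 0.051 (95% interval -0.21 to 0.32), which limits the knockout level to 0.862 to 1.246 times that of wild type.

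Cfd (chromosome 10, 79890853 to 79892656, 5 exons) was at 5847, 4888, 5797 and 11572.5 CPM among wild-type mice and at 5481, 10491, 9644 and 7174 CPM among knockout mice. Wild-type library 4 was the highest of all, about the level of knockout libraries 2 and 3, and the other wild-type mice lay with knockout library 1. The mean CV was 35.8%, higher than in 93.8% of genes at 100 CPM or more. The log2 fold change was 0.22 (95% interval -0.50 to 0.95). It was 0.58 without wild-type library 4 (unadjusted p = 0.0581 and adjusted p = 1.00 in edgeR) and -0.0018 without the pair with epithelial genes.

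Nampt (chromosome 12, 32820335 to 32853369, 11 exons) was at 140.3, 133, 134 and 152 CPM among wild-type mice and at 121, 131, 148 and 123 CPM among knockout mice. The 3 lowest libraries were knockout and the highest was wild type, with the remaining knockout mouse, library 3, next to it. With a mean CV of 7.84%, its interval was the narrowest of the 8, a log2 fold change of -0.097 (95% interval -0.32 to 0.12), or 0.801 to 1.09 times the wild-type level.

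Apln (chromosome X, 48025146 to 48034852, 3 exons) was the least abundant, with 810 to 2211 counts per library. It was at 45.6, 25.2, 24.9 and 18.1 CPM among wild-type mice and at 33.5, 32.7, 39.2 and 16.6 CPM among knockout mice. Both genotypes spanned more than 2-fold, and the 2 lowest mice were library 4 of each genotype. Its log2 fold change was 0.10 (95% interval -0.64 to 0.84), and 0.42 without wild-type library 1.

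Rarres2 (chromosome 6, 48569698 to 48572670, 6 exons) was at 669.8, 868, 604 and 512 CPM among wild-type mice and at 721, 386, 591 and 744 CPM among knockout mice. Knockout library 2 was the lowest and wild-type library 2 the highest, with the other 6 between 512 and 744 CPM. The log2 fold change was -0.12 (95% interval -0.65 to 0.41). It was 0.037 without wild-type library 2 and 0.044 without knockout library 2.

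**Figure D2:**
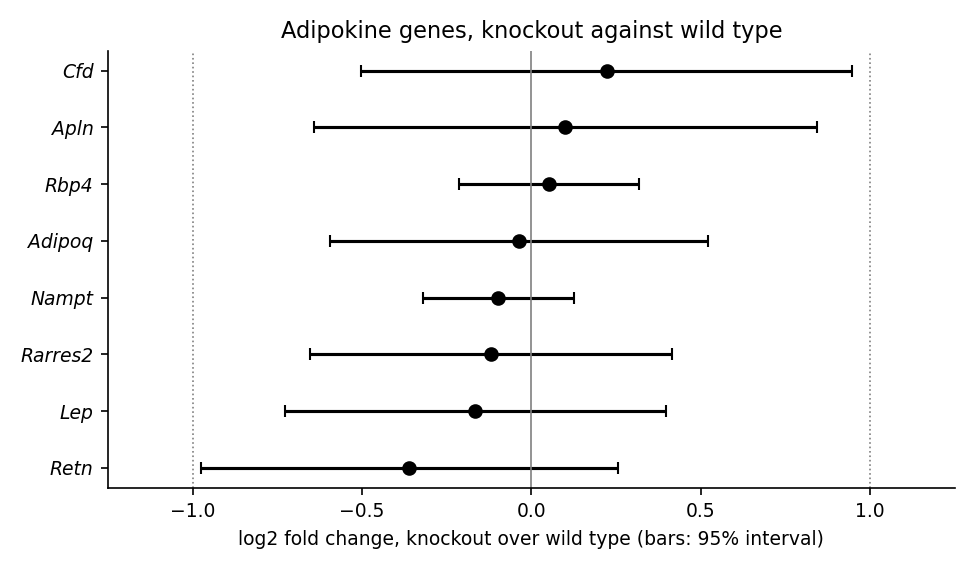
Fitted log2 fold change of each adipokine gene, knockout over wild type (points), with 95% intervals (bars); the solid line marks 0 and the dotted lines a 2-fold difference. All 8 intervals include 0 and lie within the dotted lines, and those of Nampt (-0.32 to 0.12) and Rbp4 (-0.21 to 0.32) are the narrowest.

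The levels of these genes were also compared with each other across mice. Over the 8 libraries 12 of the 28 gene pairs had a positive and 16 a negative Pearson correlation of log2 CPM, and 3 pairs, those among Cfd, Lep and Rarres2, had an unadjusted exact permutation p under 0.05 (two-sided, n = 8). None passed after Benjamini-Hochberg adjustment over the 28 pairs, with a smallest adjusted p of 0.214. Cfd ran against Rarres2 (r = -0.80, permutation p = 0.0111, adjusted 0.214; rho = -0.81, permutation p = 0.0218, adjusted 0.539). Lep ran with Rarres2 (r = 0.82, permutation p = 0.0153, adjusted 0.214; rho = 0.69, permutation p = 0.0694, adjusted 0.539) and against Cfd (r = -0.74, permutation p = 0.0233, adjusted 0.217; rho = -0.74, permutation p = 0.0458, adjusted 0.539). Mice with much leptin transcript, such as knockout library 1, had little adipsin transcript, and knockout library 2 had the reverse.

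The relations differed with the mice that were left out. Without the 2 libraries farthest from the median, r was -0.62 for Cfd with Rarres2 (knockout library 2 and wild-type library 4 left out). With knockout libraries 2 and 3 left out, r was 0.49 for Lep with Rarres2 and -0.67 for Lep with Cfd, and the permutation p was 0.171 or more in all 3. Without the pair with epithelial genes, Cfd with Rarres2 had r = -0.90 (permutation p = 0.0125, not adjusted), Lep with Cfd r = -0.71, and Lep with Rarres2 r = 0.62 (permutation p = 0.172). The sign was the same in both genotypes for each pair, over 4 mice each, too few for a test. Cfd with Rarres2 had r = -0.85 in wild type and -0.80 in knockout, and Lep with Cfd -0.82 and -0.95. Lep with Rarres2 had r = 0.52 in wild type and 0.94 in knockout. Adipoq and Retn (r = -0.72, permutation p = 0.0527, adjusted 0.369; rho = -0.52, permutation p = 0.197, adjusted 0.756) also ran in opposite directions. These had r = -0.86 in wild type and -0.81 in knockout, and r = -0.51 without wild-type library 1 and knockout library 3. Rbp4 had a correlation between -0.17 and 0.25 with each of the other 7 genes. All pairs share libraries and scaling, and CPM is a share of a fixed total.

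**Figure D3:**
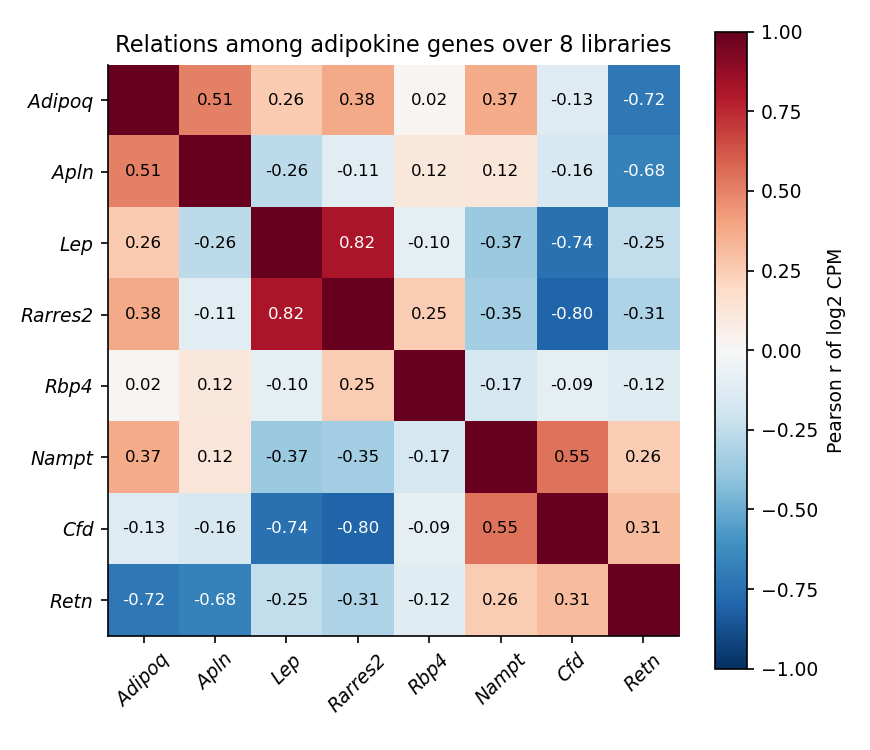
Pearson correlation of log2 CPM over 8 libraries for each pair of adipokine genes (colour scale from -1 to 1, values printed in the cells). Lep and Rarres2 (0.82) are positively related and both run against Cfd (-0.74 and -0.80), while the Rbp4 row stays between -0.17 and 0.25.

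Markers of the cells in the tissue give the setting of these levels. The 10 mature adipocyte genes, among them the lipid droplet protein gene Plin1 and the fatty acid carrier gene Fabp4, were all detected in every library and summed to 32247 to 46069 CPM among wild-type mice and 34605 to 45677 CPM among knockout mice, which fits the labelled tissue. Adipoq followed this sum closely (r = 0.90, permutation p = 0.0018, adjusted 0.103; rho = 0.93, permutation p = 0.0022, adjusted 0.125; n = 8), and r was 0.88 without wild-type libraries 1 and 3. Fabp4 weighs most in the sum, with 20707 of the 46069 CPM in wild-type library 1. The 10 genes were not related to Adipoq one by one. The other adipokines had r with this sum from -0.66 for Retn to 0.58 for Apln, with -0.022 for Lep and 0.14 for Cfd. Over the 56 pairs of an adipokine and a marker list 3 had an unadjusted permutation p under 0.05 for r and 0 after adjustment. The other pairs were with the 6 mesothelial genes, which mark the lining of the fat pad: Rarres2 ran with their sum (r = 0.75, permutation p = 0.0277, adjusted 0.518; rho = 0.86, permutation p = 0.0107, adjusted 0.215) and Cfd against it (r = -0.86, permutation p = 0.0119, adjusted 0.334; rho = -0.83, permutation p = 0.0154, adjusted 0.215). Lep had r = 0.69 with this sum (permutation p = 0.0524, adjusted 0.542) and rho = 0.69 (permutation p = 0.0694, adjusted 0.648). Without knockout library 3 and wild-type library 2, r was 0.80 for Rarres2, -0.82 for Cfd and 0.67 for Lep. The mesothelial sum was 645, 996, 275 and 190.4 CPM across wild-type libraries 1 to 4 and 882, 189, 118 and 405 CPM across knockout libraries 1 to 4, with all 6 genes above 0 in each. The 10 macrophage genes, all above 0 in every library, summed to 579 to 1559 CPM among wild-type mice. Across knockout libraries 1 to 4 the sum was 1962, 697, 774 and 3202 CPM, so that libraries 2 and 3 lay within the wild-type range. All 10 macrophage genes had log2 fold changes above 0 (median 0.70) and all 6 mesothelial genes below 0 (median -0.39). Of all tested genes 53.1% were above 0, with a median of 0.011. None of the macrophage or mesothelial genes passed or had an unadjusted p under 0.05. Genes of a list share the same mice, so their signs are not separate results. The 8 endothelial genes, also detected in every library, summed to 839 to 1312 and 833 to 1337 CPM, and the 8 progenitor and fibroblast genes to 2101 to 3311 and 1983 to 4477 CPM. The 8 lymphocyte genes summed to 13.5 CPM or less. Of the 6 epithelial genes 5 were above 0 in every library, and they summed to 6.75 to 57.2 CPM among wild-type mice and 5.87 to 157 CPM among knockout mice. By rho, Lep with the progenitor and fibroblast sum (rho = 0.83, permutation p = 0.0154, adjusted 0.215) was also under 0.05 before adjustment. So was Apln with the adipocyte sum (rho = 0.79, permutation p = 0.0279, adjusted 0.313). The part of the cells of these lists in the adipokine levels was not tested.

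**Figure D4:**
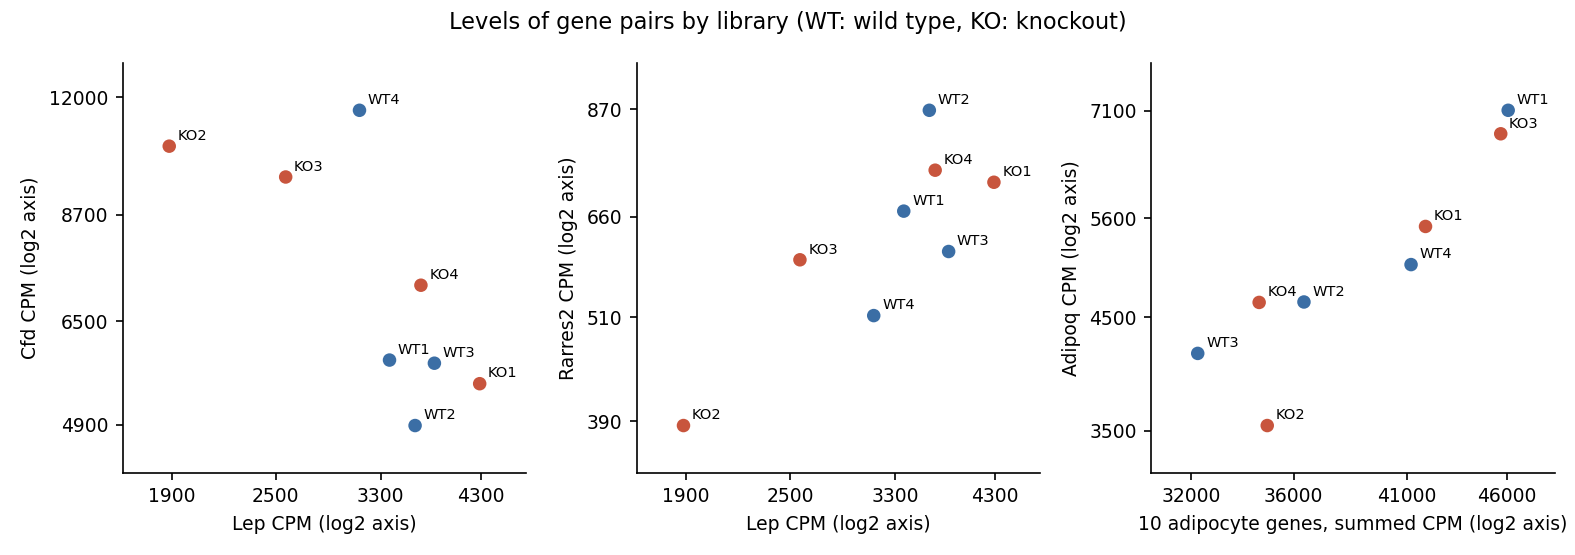
Levels in CPM in each library on log2 axes: Cfd against Lep (left), Rarres2 against Lep (middle), and Adipoq against the summed level of 10 adipocyte genes (right). Blue points are wild type and red points knockout; knockout library 2 lies at the low end of Lep in the first 2 panels, and Adipoq climbs with the adipocyte sum from wild-type library 3 to wild-type library 1, with knockout library 2 below the line of the others.

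Other genes were ranked by how closely their log2 CPM followed each adipokine over the 8 libraries, against 9202 other tested genes with a mean of at least 10 CPM. These are descriptions: with 8 points and so many candidates the highest r is near 1 for any gene. The closest to Lep were Pam (r = 0.98), which amidates the ends of secreted peptides, Fgf13 (0.98) and Aida (0.97). The closest to Cfd were Ddx28 (0.99), Mta2 (0.96) and 0610010K14Rik (0.94), and those to Adipoq were 2610002M06Rik (0.98), 4833439L19Rik (0.97) and Dock11 (0.97). Retn was followed by Stk38l (0.95), Wtip (0.93) and 0610007P22Rik (0.93), and Rbp4 by 3110062M04Rik (0.94), Wars (0.93) and Map3k10 (0.93). For Nampt they were Zc3h18 (0.98), Rhbdl1 (0.96) and Cdc40 (0.95), for Apln Meox1 (0.94), Acot10 (0.92) and Gigyf2 (0.91), and for Rarres2 Tmem62 (0.98), Nek6 (0.97) and Stim2 (0.96). No adipokine was among the 3 closest genes of another.

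Around the adipokines, 10 lists of receptors, processing enzymes, pathway partners, relatives and regulators held 107 tested genes, and 0 passed in edgeR's quasi-likelihood test. An unadjusted p under 0.05 was reached by 2 of them (1.87%), as by 2.23% of all tested genes. Above 0 were 57 and below 0 were 50, with a median log2 fold change of 0.026, where 53.1% of all tested genes were above 0.

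Among 13 tested receptors and binding partners 6 were above 0 and 7 below, with a median log2 fold change of -0.011. The leptin receptor gene Lepr was lower in the 4 knockout mice than in any wild-type mouse, the 1 partner gene of 107 (0.935%) whose groups did not overlap, beside 1.44% of all tested genes. Its level was 3.28, 4.10, 4.07 and 4.78 CPM across wild-type libraries 1 to 4 and 2.99, 3.13, 1.64 and 1.00 CPM across knockout libraries 1 to 4. The log2 fold change was -0.89 (SE 0.36, unadjusted p = 0.035), which did not pass over all genes (adjusted p = 1.00 in edgeR), with 49 to 228 counts per library. Knockout libraries 1 and 2 lay just under the lowest wild-type mouse, and libraries 3 and 4 well below. The adiponectin receptor genes Adipor2 and Adipor1 were at 972 ± 223 and 226 ± 12.8 CPM among wild-type mice and at 972 ± 258 and 213 ± 12.2 CPM among knockout mice (SD, n = 4 each). Cmklr1, the signalling receptor for chemerin, was at 239 ± 57.3 and 218 ± 64.6 CPM. Aplnr, the apelin receptor, was at 33.4 ± 5.66 and 40.8 ± 8.80 CPM, and Gpr1, which also binds chemerin, at 2.93 ± 0.666 and 2.12 ± 1.01 CPM. Stra6, the cell surface receptor for Rbp4, was near the floor with 6 to 33 counts per library.

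Enzymes and chaperones that fold adiponectin in the endoplasmic reticulum spanned a narrow range, with 3 of 9 above 0 and a median of -0.053. Ero1l, the oxidase that helps release adiponectin, was at 22.1 ± 2.91 CPM among wild-type mice and 20.2 ± 1.54 CPM among knockout mice, and Erp44, which retains it, at 60.6 ± 5.08 and 56.5 ± 4.27 CPM. The disulfide isomerase gene Pdia4, which shares exonic bases with Mir704, was at 145 ± 19.3 and 127 ± 19.3 CPM. The collagen lysyl hydroxylase gene Plod1 was at 135 ± 14.96 and 151 ± 26.8 CPM. Relatives of adiponectin in the C1q and TNF family had 7 of 11 tested genes above 0 and a median of 0.25. The smallest p-values of the list were those of C1qtnf4 (0.0758) and C1qtnf1 (0.332), neither adjusted (edgeR). C1qtnf4 was at 0.414 ± 0.155 CPM in wild type, and among the knockout libraries it was at 3.75 CPM in library 2, one of the pair with epithelial genes, and at 0.274 to 0.614 CPM in the other 3. C1qtnf1, whose exons share bases with Gm11747, was at 159 ± 49.7 and 204 ± 80.6 CPM. C1qb, a complement gene of macrophages, was at 133 ± 79.6 and 182 ± 113 CPM, beside the macrophage sums above. C1qtnf2 was at 6.19 ± 1.55 and 5.50 ± 0.901 CPM.

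Of 9 alternative complement genes around adipsin 4 were above 0, with a median of -0.079. C3, the central complement protein, was at 1293, 2719.7, 872 and 709.9 CPM across wild-type libraries 1 to 4 and at 2015, 723, 482 and 1457 CPM across knockout libraries 1 to 4. The 3 mice with the most adipsin transcript (wild-type library 4, knockout libraries 2 and 3) were the 3 with the least C3, a pattern noticed in the values and not tested. These 3 also had the 3 lowest mesothelial sums, and wild-type library 2 and knockout library 1, with the highest sums, had the most C3; the part of mesothelial cells in C3 was not tested. The regulator genes Cr1l and Cd46 were at 43.2 ± 2.02 and 0.918 ± 0.332 CPM among wild-type mice and at 40.9 ± 3.19 and 0.813 ± 0.153 CPM among knockout mice. Cfi was at 0.674 ± 0.861 and 1.44 ± 2.26 CPM. It was at 4.82 CPM in knockout library 2 and 1.93 CPM in wild-type library 3, the pair with epithelial genes, and at 0.554 CPM or less elsewhere.

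NAD synthesis and use genes around Nampt had 5 of 13 above 0, with a median of -0.047. Nmnat3 and Nmnat1, which complete NAD synthesis, were at 8.38 ± 1.46 and 7.40 ± 0.653 CPM among wild-type mice and at 10.6 ± 2.43 and 6.75 ± 0.626 CPM among knockout mice. Naprt1, which makes NAD from nicotinic acid, was at 17.1 ± 1.57 and 18.3 ± 0.997 CPM, the NAD kinase gene Nadk at 326 ± 45.8 and 302 ± 35.2 CPM, and Nnmt, which methylates nicotinamide, at 337 ± 38.3 and 353 ± 52.3 CPM. Retinol carriage genes around Rbp4 had 4 of 7 tested genes above 0 (median 0.016). Dgat1, which can esterify retinol as well as make triglyceride, was at 317 ± 30.6 and 370.1 ± 63.3 CPM, the retinaldehyde dehydrogenase genes Aldh1a1 and Aldh1a2 at 331 ± 76.7 and 27.5 ± 13.6 CPM among wild-type mice and at 294 ± 60.4 and 22.5 ± 14.97 CPM among knockout mice. Ttr, the plasma partner of Rbp4 made mainly in liver, had 5 to 54 counts per library. In the resistin family 1 of 3 relatives was tested: Retnla was at 381 ± 183 and 369 ± 127 CPM, and Retnlb and Retnlg had 26 counts or fewer in every library.

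Among 23 tested other secreted factors 12 were above 0, with a median of 0.12. Tnf, an inflammatory cytokine mostly from macrophages, was at 0.144, 0.196, 0.351 and 0.314 CPM among wild-type mice and at 0.455, 0.432, 0.316 and 1.06 CPM among knockout mice (log2 fold change 1.16, SE 0.49, unadjusted p = 0.0414, adjusted p = 1.00 in edgeR). Its highest value, in knockout library 4, was in the library with the highest macrophage sum, 3202 CPM. Knockout library 2 had more Tnf than wild-type library 3 (0.432 against 0.351 CPM) at a lower macrophage sum (697 against 1559 CPM). Tnf had 7 to 52 counts per library, and the part of macrophages in its level was not tested. Gdf15, a stress hormone, was at 0.600 ± 0.411 and 1.01 ± 0.257 CPM, Nucb2, the precursor of nesfatin, at 30.6 ± 2.37 and 25.99 ± 6.38 CPM, and Metrnl at 23.9 ± 6.53 and 32.3 ± 17.9 CPM. Itln1, the gene of omentin, was at 0 counts in all 8 libraries. Proteases that can cut apelin or chemerin had 9 of 11 above 0, with a median of 0.19. Named by smallest p, the lysosomal proteases were Ctss, at 99.8 ± 58.8 and 228 ± 217 CPM and also a macrophage marker, and Ctsk, at 25.2 ± 9.78 and 40.3 ± 23.1 CPM. Cpn1 was at 0.167 ± 0.187 and 0.379 ± 0.384 CPM, and the proprotein convertase gene Pcsk5 at 27.2 ± 2.67 and 30.5 ± 6.58 CPM.

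Transcription regulators tied to adipokine promoters had 7 of 10 above 0, with a median of 0.074. Cebpa, which encodes a factor of the class that binds the palindrome in the Lep window, was at 929.6 ± 118 CPM among wild-type mice and 1066 ± 179 CPM among knockout mice. Its highest level, 1331 CPM, was in knockout library 2, one of the pair with epithelial genes, where Lep was lowest. That match rests on a single library and was noticed in the values. The part of Cebpa in the Lep level was not tested. Cebpb, a relative of Cebpa, was at 25.1 ± 3.74 and 33.2 ± 9.42 CPM. Rxra, the partner of PPAR gamma, was at 300.2 ± 30.2 and 327 ± 40.9 CPM, and Sp1 at 67.7 ± 8.21 and 72.9 ± 7.15 CPM.

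**Figure D5:**
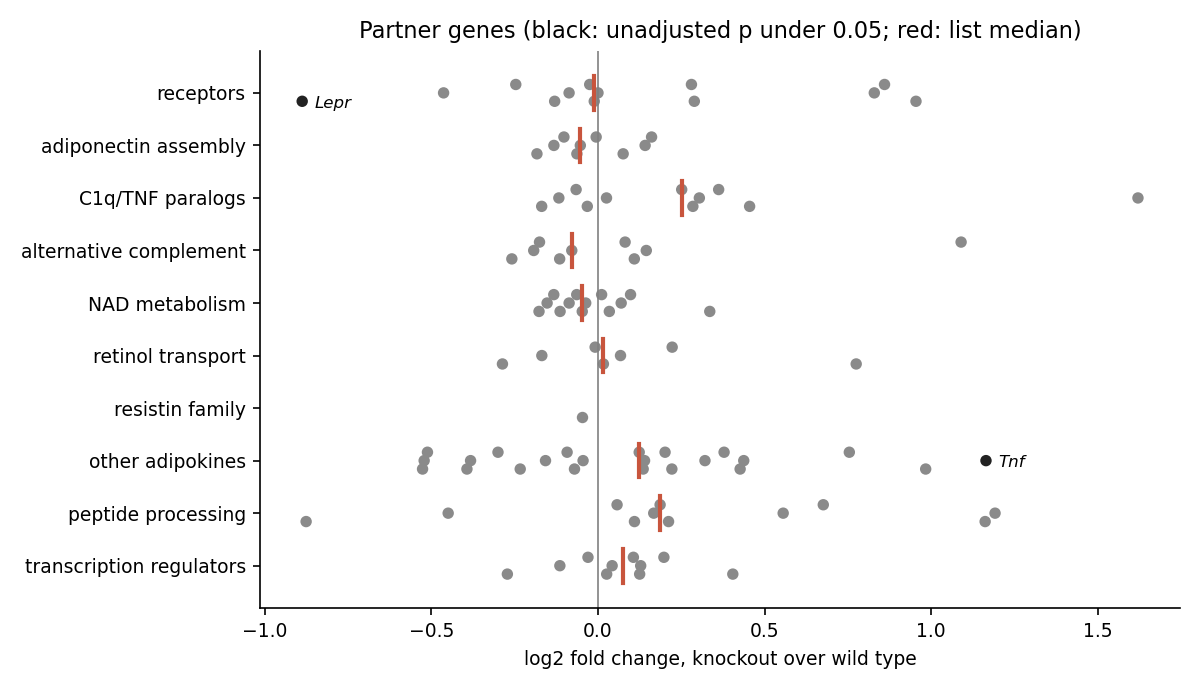
Log2 fold change, knockout over wild type, of the tested genes of 10 lists around the adipokines (1 point per gene; red bars: list medians). Points with an unadjusted p under 0.05 are black, Lepr on the lower and Tnf on the higher side; no gene passed after adjustment over all genes.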

How the data were processed

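The deposited tables give unnormalized read counts by gene symbol, 1 file for each mouse. They come from the authors' pipeline, for which the submitters' processing notes list FastQC (0.11.2), STAR (2.4.0g1), featureCounts, Cufflinks, edgeR and the mm10 build. The role of each tool and the strand setting were not given in the sources used here, so reads of overlapping genes cannot be told apart. Exon positions came from the deposited merged annotation.

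Genes were kept with filterByExpr, scaled by TMM and tested across all genes with edgeR 4.0.16 (R 4.3.3), quasi-likelihood, robust, no covariate, Benjamini-Hochberg, threshold 0.05. SEs and intervals are those the F statistic implies. On simulated counts of 4 against 4 libraries (5 simulations, 14365 genes tested in the first), 58.6% of 2-fold and 89.2% of 4-fold changes were recovered, 5.41% of calls were false and 95.5% of 95% intervals held the true value for genes over 10 CPM. CPM uses TMM-scaled totals; log2 CPM adds a prior count of 2. Correlations have two-sided exact permutation p-values, adjusted within each family. Alternatives were other scalings, filters, DESeq2 1.42.0, limma 3.58.1 voom, non-robust dispersion, the replicate number as block, and libraries left out.

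The members and lists were chosen with earlier results of these data known. Named genes are the 8 members, up to 4 genes of the smallest p per list, 8 closest partners and the 3 genes most like each member. Adipor1, Retnlb, Retnlg, Itln1, Plin1 and Fabp4 were named outside that rule, after values were seen, as were the epithelial genes in the opening. The readings of C3 and of Cebpa beside Lep were also made after values were seen. Of 126 listed partner symbols, 4 had no match and 5 matched an older symbol. No libraries of a genotype agreed within sampling noise (smallest chi-square per degree of freedom 66.4). The labels do not say that samples came from separate litters, so p-values measure the spread between these mice. The targeted gene is not reported here.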

Additional observations from a re-analysis of the deposited data

Results flagged for a closer look

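A single library lay well away from the remaining 3 of its genotype in 6 of 152 gene and genotype combinations, fewer than the 7.6 that chance gives on average, and none of the 6 was 1 of the 8 adipokine genes. C1qtnf1 was at a log2 CPM of 6.42 in wild-type library 2 and at 7.42 to 7.62 in the other wild-type libraries. Cebpb was at 4.26 in knockout library 3, against 5.20 to 5.28 in the other knockout libraries, and Gdf15 at -0.57, against 0.20 to 0.30. Sp1 was at 6.32 in wild-type library 1, against 5.97 to 6.03, and at 6.38 in knockout library 3, against 6.10 to 6.15. Epcam was at 2.54 in wild-type library 3, against -2.20 to -1.70.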

How the results depend on the processing

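No adipokine gene passed in any of 18 fits, the main one included. The smallest adjusted p was 0.892 and the smallest unadjusted p 0.0581. The 10 partner lists had 0 genes past the threshold in all 18 fits. Of 136 values under the 17 alternatives 123 had the sign of the main fit, and the 13 that turned were at most 0.15 in size. Leaving out 1 library at a time gave log2 fold changes of -0.20 to 0.15 for Adipoq, -0.36 to 0.0079 for Lep, -0.23 to 0.044 for Rarres2, -0.00060 to 0.12 for Rbp4 and -0.058 to 0.42 for Apln, so their signs turned, while Cfd (0.077 to 0.58), Retn (-0.54 to -0.21) and Nampt (-0.16 to -0.051) kept theirs. Without the pair with epithelial genes the values were 0.0088 for Adipoq, 0.059 for Lep, -0.0021 for Rbp4, -0.0018 for Cfd and 0.0058 for Rarres2. The difference in the log2 leptin to adiponectin ratio ran from -0.35 to 0.029 as each library was left out. Lepr stayed between -1.11 and -0.66, with adjusted p of 0.870 or more.

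Over all genes, 2 passed in the main fit, 17 in DESeq2, and 0 with total counts, no low-count filter, limma voom, without the pair with epithelial genes, or without any 1 library (0 to 0). With the replicate number as a block 0 genes passed, and Retn had a log2 fold change of -0.36 (adjusted p = 0.999). Same-numbered libraries had correlations of 0.12, -0.015, -0.32 and -0.017 after centring on each genotype. Differently numbered libraries were not compared, so these values do not settle whether the numbers pair the mice. The causes were not tested. Without the pair the relation of Lep and Rarres2 was 0.62 (exact permutation p = 0.172) and that of Cfd and Rarres2 -0.90 (exact permutation p = 0.0125). Depth limited Lepr, Tnf and Stra6 more than the 8 adipokine genes, which had 810 to 552431 counts per library.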
